A study of Homo sapiens with 4 samples.

Results

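Transcripts of 9 genes of ferritin and cellular iron handling were followed in MDA-MB-231, a human cell line established from a triple-negative breast cancer. Cells received DMSO, the vehicle, or RB-BC for 24 h, RB-BC being derived from ribociclib, which inhibits CDK4 and CDK6. The genes were chosen by symbol: FTH1, FTL, TFRC, SLC40A1, SLC11A2, IREB2, ACO1, NCOA4 and STEAP3. All 9 were found among the 20263 genes of the deposited count table, and all 9 passed the filter on low counts. The list was drawn up with earlier results of this same comparison known, in which FTH1 and FTL were higher with RB-BC, so the values of the 9 genes are given as a description and the number past a threshold supports nothing by itself.

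Both groups were grown in medium with 10% serum, and each was represented by 2 libraries. The labels give neither the dose nor whether the libraries of a group came from separate cultures, so the p-values speak of the spread among these 4 libraries alone, and that spread may be technical. Rib_CA is the compound's name in the treatment protocol, which does not say if it is the same as RB-BC. Library totals ran from 34774542 to 42786422 counts, and the share of mitochondrially encoded genes was 21.7% in DMSO 2 against 8.68% to 10.3% elsewhere. Vimentin (VIM), CD44 and EGFR, which mark this line, were at 447 CPM or more in every library. Of the markers fixed as low or absent, CDH1, which encodes E-cadherin, had at most 2 counts. ESR1 and PGR were at most at 0.611 and 1.73 CPM. The others were not absent, with ERBB2 at 56.3 to 71.6 CPM, GATA3 at 7.89 to 21.4 CPM and EPCAM at 5.49 to 9.34 CPM. Of the 6 markers fixed as present in the line, CAV1 fell (−1.10 ± 0.14) and 0 rose. Erythroid markers, whose cells handle iron for hemoglobin, summed to at most 0.716 CPM in any library. Leukocyte markers summed to 149 and 333 CPM in DMSO and to 473 and 505 CPM in RB-BC, and nearly all of this was CD68, a lysosomal protein gene (1.02, edgeR adjusted p = 0.107). Its part in the results was not tested. PTPRC, CD14 and ITGAM, the other 3 leukocyte markers, had at most 48, 23 and 18 counts.

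Cells take up iron bound to transferrin through the transferrin receptor (TFRC). In the endosome the reductase STEAP3 converts it to the ferrous form, and the transporter DMT1 (SLC11A2) carries it to the cytosol. There it is used, exported by ferroportin (SLC40A1) or stored in ferritin, a shell of heavy (FTH1) and light (FTL) subunits, from which the autophagy receptor NCOA4 can release it by delivery to lysosomes. The iron regulatory proteins IRP1 (ACO1) and IRP2 (IREB2) bind RNA hairpins called iron-responsive elements when iron is scarce. Binding in a 5′ UTR, as in the ferritin and ferroportin transcripts, blocks translation, whereas binding in the 3′ UTR of TFRC protects the transcript from decay. RNA counts therefore report TFRC control in part and do not show ferritin translation.

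The elements are shown because they divide these genes by the direction in which iron acts on them. The pattern searched was C, then 5 bases, CAGTGN with the last base not G, and 5 bases that pair with the first 5 (Watson-Crick or G-T pairs, 5 of 5 required), on the sense strand of GENCODE release 29 transcripts. In the principal transcripts it was found once in FTL, 4 times in TFRC and once in SLC40A1. Matches were listed by gene only where the gene has a RefSeq promoter window. FTH1 has none, so whether its transcript holds the pattern is not given here. The pattern occurred in 173 of 19722 principal transcripts of protein-coding genes (0.877%), in 13 of them in the 5′ UTR and in 82 in the 3′ UTR. That total includes FTH1 among the transcripts searched. The pattern is strict, and its absence from SLC11A2, IREB2, ACO1, NCOA4 and STEAP3 says only that these letters with full pairing were not there. SLC11A2 is nonetheless among the transcripts listed below as known to carry an element, so the search can miss one. The sequences are written 5′ to 3′ with the loop in capitals, on GRCh38.
FTL 5′ UTR, chr19:48965337-48965361, plus strand: cttgcttcaaCAGTGTttggacgga
SLC40A1 5′ UTR, chr2:189580663-189580687, minus strand: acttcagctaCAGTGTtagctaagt
TFRC 3′ UTR, chr3:196050981-196051005, minus strand: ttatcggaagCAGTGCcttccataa
TFRC 3′ UTR, chr3:196050577-196050601, minus strand: ttatcgggagCAGTGTcttccataa
TFRC 3′ UTR, chr3:196050512-196050536, minus strand: gtatcggagaCAGTGAtctccatat
TFRC 3′ UTR, chr3:196050465-196050489, minus strand: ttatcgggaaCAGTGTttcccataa

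Both ferritin subunit transcripts were higher with RB-BC. FTH1, the subunit that oxidizes ferrous iron, was at 674 and 948 CPM in DMSO 1 and DMSO 2 and at 2439 and 2153 CPM in RB-BC 1 and RB-BC 2 (CPM, counts scaled to the library size with TMM factors). The groups did not overlap, and the lower RB-BC library stood well above the higher DMSO library. The means were 811 ± 193.5 and 2296 ± 202 CPM (SD, n = 2), a 2.83-fold difference and a log2 fold change of 1.502 ± 0.221 (SE). FTL, the subunit that favors formation of the iron core, was at 3697 and 4055 CPM in DMSO and at 9536 and 8882 CPM in RB-BC. Here too both RB-BC libraries were above both DMSO libraries, and the libraries of each group lay close together. The FTL means were 3876 ± 253.5 and 9209 ± 462 CPM, a 2.38-fold difference (1.25 ± 0.19).

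FTH1 and FTL were 2 of the 9 genes to pass edgeR's quasi-likelihood test at an adjusted p of 0.05 (0.0142 and 0.0148), both higher, and 0 of the 9 passed as lower. Of all 13744 genes tested, 16.1% passed, 8.58% as higher and 7.53% as lower. The comparison was the one known when the list was made, so nothing is read from these counts. Leaving out RB-BC 1 ended the call of both genes, with FTH1 at 1.41 (edgeR adjusted p = 0.0909) and FTL at 1.20 (edgeR adjusted p = 0.158). Leaving out RB-BC 2 ended that of FTL, then at 1.30 (edgeR adjusted p = 0.103). In those fits the remaining RB-BC library is assumed to vary like the DMSO pair, and 1.47% and 3.23% of all genes passed. Both genes passed without DMSO 1 and without DMSO 2, where 23.1% and 26% of all genes did. DESeq2 called 3 of the 9 (SLC11A2 besides the ferritin genes) and 23.4% of all genes, and limma-voom 2 of the 9 and 16.6%.

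**Figure D1:**
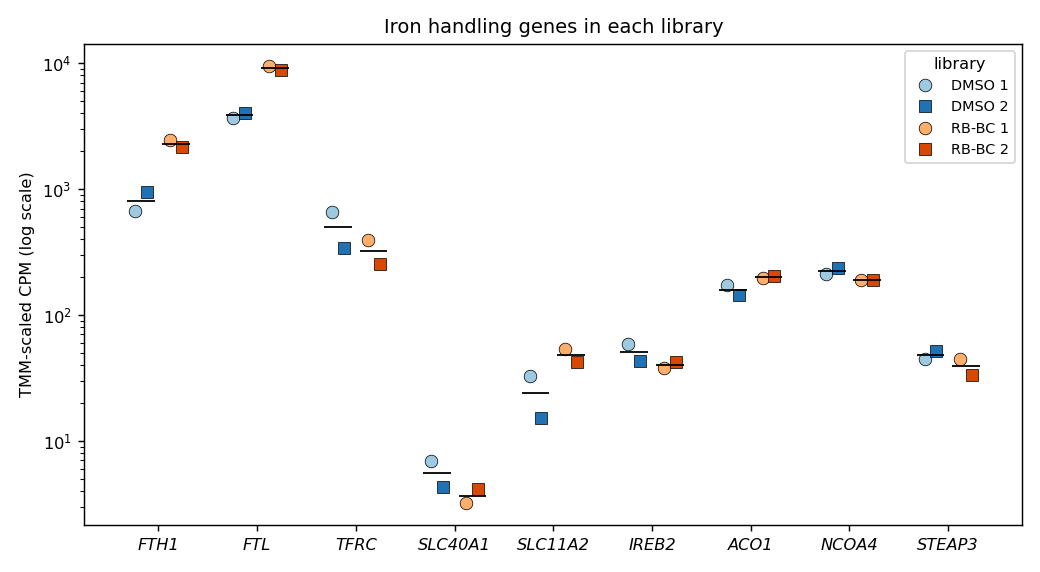
TMM-scaled CPM (log axis) of the 9 genes in each library, with DMSO in blue and RB-BC in orange and the group mean as a bar. FTH1 and FTL lie higher in both RB-BC libraries, while TFRC and SLC11A2 are far apart between DMSO 1 and DMSO 2.

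Ferritin transcripts took a larger share of all counts in both RB-BC libraries than in both DMSO libraries. FTH1 and FTL together took 0.473% of all counts in DMSO 1 (95% Wilson interval 0.471% to 0.476%) and 0.444% in DMSO 2 (0.442% to 0.446%). In RB-BC 1 they took 1.21% (1.21% to 1.22%) and in RB-BC 2 1.13% (1.13% to 1.14%). The intervals treat every read as a separate molecule, which reads need not be, so they may be too narrow even for counting error. They do not cover the spread between libraries. All counts include those of mitochondrially encoded genes, 21.7% in DMSO 2 against 8.68% in DMSO 1. With TMM factors both genes were higher in DMSO 2 than in DMSO 1. FTH1 was then at 948 against 674 CPM and FTL at 4055 against 3697 CPM. Per kilobase of transcript, FTL ranked between 6 and 13 among 13728 genes in the 4 libraries, with the ranks 9 and 13 in DMSO and 6 and 7 in RB-BC. FTH1 ranked 63 and 46 in DMSO and 24 and 27 in RB-BC.

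The fold difference of the heavy subunit was slightly larger than that of the light one. The ratio of FTH1 to FTL counts was 0.182 and 0.234 in DMSO 1 and DMSO 2 and 0.256 and 0.242 in RB-BC 1 and RB-BC 2. Both RB-BC values lay above both DMSO values, but DMSO 2 was nearer to RB-BC than to DMSO 1. The group means were 0.208 ± 0.0363 and 0.249 ± 0.00948 (SD, n = 2). The ratio was not tested, since with 2 libraries a group the smallest two-sided p of an exact permutation test is 0.333. Per kilobase of transcript the means were 0.149 and 0.178.

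**Figure D2:**
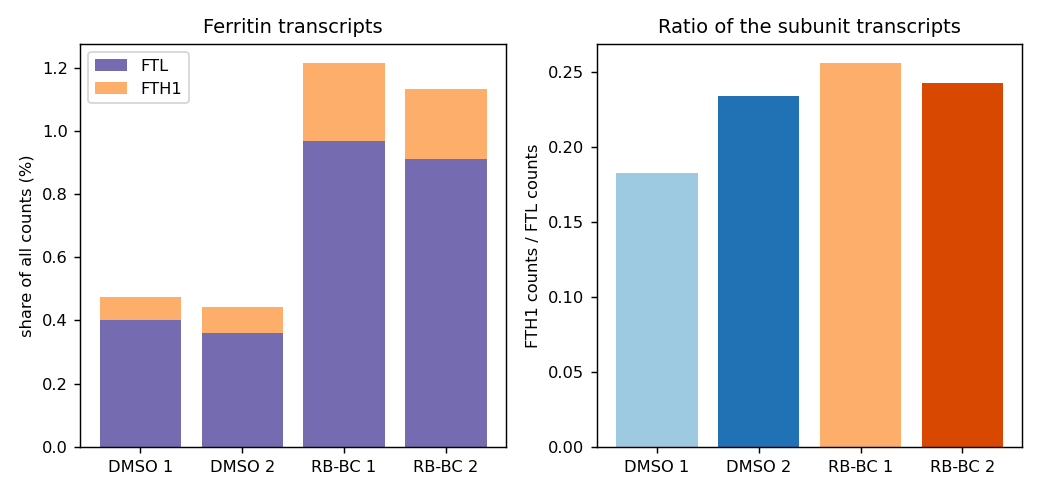
Left, the share of all counts (%) taken by FTL and FTH1 in each library, stacked. Right, FTH1 counts divided by FTL counts in each library, with the DMSO 2 bar (0.234) close to the RB-BC bars (0.256 and 0.242).

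Counting could affect both genes. GENCODE release 29 lists 25 processed or other copies named as FTH1 pseudogenes and 16 named for FTL, and 0 of these 41 are among the genes used here. How reads shared with such copies were assigned is not known. FTH1 exons also overlap those of BEST1, which encodes a chloride channel, on the opposite strand over 1267 bases, and the strand setting of the counting is not known. Counts of BEST1 were 45 and 68 in DMSO and 295 and 270 in RB-BC, beside FTH1 counts of 25370 and 31758, then 105820 and 94374. The related genes FTMT, a mitochondrial ferritin, and FTHL17 had 0 counts in every library.

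The 250 bases before the FTL start are shown because FTL was the most abundant of the genes and its RNA level differed between the groups. The sequence is from RefSeq (GRCh38.p14, chr19:48965059-48965308, plus strand), with matches to the CCAAT box on either strand in capitals.
FTL promoter: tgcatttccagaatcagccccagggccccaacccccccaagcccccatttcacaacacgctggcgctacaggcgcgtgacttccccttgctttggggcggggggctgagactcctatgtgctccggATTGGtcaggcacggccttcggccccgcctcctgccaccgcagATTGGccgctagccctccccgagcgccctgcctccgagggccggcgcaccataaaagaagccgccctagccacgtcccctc
The matches, both in reverse orientation, begin 124 and 81 bases before the start. CCAAT, on either strand, was in 34.6% of 35116 RefSeq windows of 250 bases before to 50 after a start. Of the 13 windows of the 8 genes that have one, it was in 5, namely that of FTL and all 4 of SLC11A2. The antioxidant response element core TGACNNNGC (13.3% of all windows) was in 1 of the 13, an internal start of NCOA4. TGANTCA, the AP-1 site (7.71%), was in 2, and the TATA box TATAAA (11.5%) was in that of TFRC. CACGTG, the E-box (7.26%), was in 0, and TGCNCNC, a loose metal response element core (55.9%), in 6. A match is a description of letters, and no match says nothing of the factor.

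None of the 3 genes of iron uptake, TFRC, SLC11A2 and STEAP3, passed edgeR's test. TFRC was at 662 and 340 CPM in DMSO 1 and DMSO 2 and at 396 and 254 CPM in RB-BC 1 and RB-BC 2. DMSO 1 was the high library, and DMSO 2 lay between the RB-BC libraries, so the groups overlapped. The log2 fold change was −0.63 ± 0.36 (edgeR adjusted p = 0.264). Its size depended on the DMSO library, at −0.07 when DMSO 1 was left out and at −1.03 when DMSO 2 was, and in the latter case TFRC passed (edgeR adjusted p = 0.0453). DMSO 2 is the library with the large mitochondrial share, and with mitochondrially encoded genes removed the value of TFRC was −0.62. TMM factors already adjust for such a share, so that step could change little. Whether what sets DMSO 2 apart bears on TFRC was not tested. Without RB-BC 1 and RB-BC 2 the values were −0.98 and −0.34.

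SLC11A2, the transporter that moves ferrous iron out of the endosome, was at 32.9 and 15.1 CPM in DMSO and at 53.4 and 42.6 CPM in RB-BC. Both RB-BC libraries were above both DMSO libraries, and DMSO 2 was the low one. The difference of 1.00 ± 0.36 on the log2 scale did not pass (edgeR adjusted p = 0.109). DESeq2 called it (adjusted p = 0.0327). Leaving out DMSO 1 gave 1.67, which passed (edgeR adjusted p = 0.0118), and leaving out DMSO 2 gave 0.55, which did not. STEAP3 was at 44.4 and 51.6 CPM in DMSO and at 44.5 and 33.5 CPM in RB-BC. These overlapped, with RB-BC 1 at the level of DMSO 1 (−0.30 ± 0.19, edgeR adjusted p = 0.302). The STEAP3 value was −0.52 without RB-BC 1 and −0.11 without RB-BC 2. STEAP3 exons overlap an antisense gene over 500 bases, and with the strand setting unknown these reads cannot be told apart.

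SLC40A1, which encodes the only known iron exporter of mammalian cells, was the least abundant of the genes, with 260 and 144 counts in the DMSO libraries and 139 and 182 in those of RB-BC. At 6.91 and 4.30 CPM in DMSO and 3.20 and 4.15 CPM in RB-BC the groups did not overlap, but DMSO 2 and RB-BC 2 were nearly level. The log2 fold change was −0.61 ± 0.31 (edgeR adjusted p = 0.217), between −0.22 without DMSO 1 and −0.91 without DMSO 2. NCOA4, the receptor for ferritin breakdown, was at 213.5 and 236 CPM in DMSO and at 189 and 191 CPM in RB-BC. It was slightly lower in both RB-BC libraries (−0.24 ± 0.14, edgeR adjusted p = 0.268), the smallest difference among the 9 genes.

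Neither transcript of the regulatory proteins passed the test. ACO1 was at 172 and 143 CPM in DMSO and at 197 and 204 CPM in RB-BC, and IREB2 at 58.8 and 43.5 CPM in DMSO and at 37.6 and 42.4 CPM in RB-BC. The groups did not overlap for either, though for IREB2 the gap between DMSO 2 and RB-BC 2 was small. The log2 fold change of ACO1 was 0.35 ± 0.16 (edgeR adjusted p = 0.169), and leaving out DMSO 1 raised it to 0.49, which passed (edgeR adjusted p = 0.0434). That of IREB2 was −0.35 ± 0.19 (edgeR adjusted p = 0.235), and leaving out DMSO 2 took it to −0.56, which passed (edgeR adjusted p = 0.0400). Both proteins are controlled largely after translation, ACO1 by its iron-sulfur cluster and IREB2 by degradation, which RNA counts do not show. The groups did not overlap for 7 of the 9 genes, 4 of them higher (FTH1, FTL, SLC11A2 and ACO1) and 3 lower (SLC40A1, IREB2 and NCOA4), where 65.2% of all tested genes did not overlap (33.1% higher and 32.1% lower). In these bulk samples fewer cells of a type and less RNA per cell cannot be told apart.

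**Figure D3:**
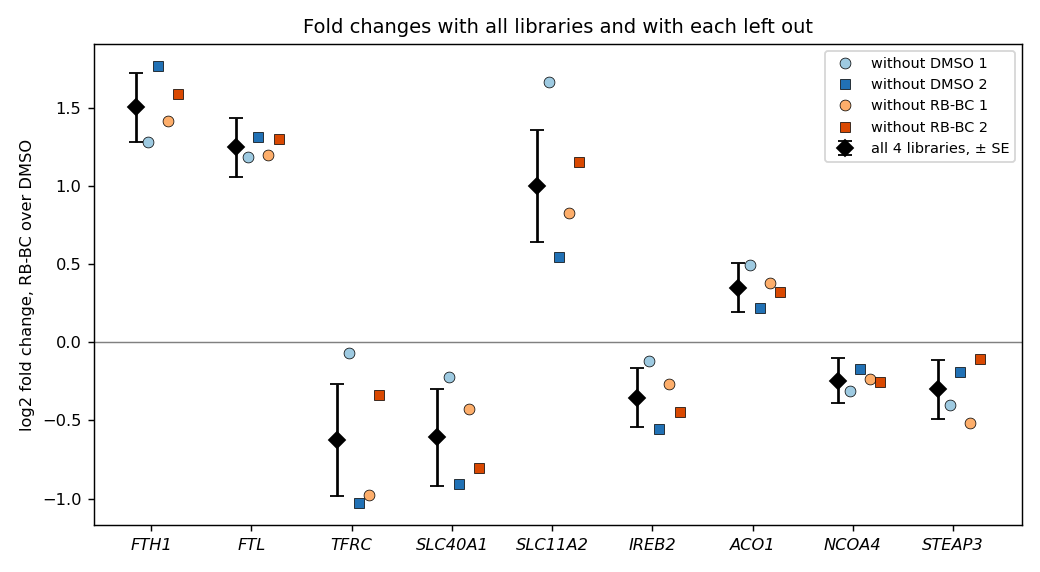
Log2 fold change of each gene, RB-BC over DMSO, with all 4 libraries (diamond, ± SE) and with each library left out in turn (colored points). FTH1 and FTL stay between 1.18 and 1.77, whereas TFRC runs from −1.03 to −0.07 and SLC11A2 from 0.55 to 1.67 as DMSO libraries are left out.

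Levels per kilobase of the principal transcript set the genes in an order that depends on the length used. For SLC11A2 that length is 4164 bases, against 10145 for all its exons together. For FTH1 it is 1229 against 2030 bases, while for FTL both are 878. In DMSO the mean TMM-scaled CPM per kilobase was 4415 for FTL and 660 for FTH1, then 98.0 for TFRC, 97.4 for NCOA4, 21.1 for ACO1, 12.3 for STEAP3, 8.05 for IREB2, 5.76 for SLC11A2 and 1.63 for SLC40A1. TFRC and NCOA4 were not distinct there, since TFRC was at 129.5 and 66.5 and NCOA4 at 92.5 and 102 in DMSO 1 and DMSO 2. IREB2 (9.25 and 6.84) and SLC11A2 (7.90 and 3.63) overlapped as well. In RB-BC the same quantity was 10490 for FTL and 1868 for FTH1, then 82.3 for NCOA4, 63.5 for TFRC, 26.9 for ACO1, 11.5 for SLC11A2, 9.96 for STEAP3, 6.30 for IREB2 and 1.07 for SLC40A1. SLC11A2 (12.8 and 10.2) and STEAP3 (11.4 and 8.56) overlapped in RB-BC 1 and RB-BC 2.

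By the distance between log2 CPM profiles centered on the mean of the 4 libraries, the 3 genes nearest to FTH1 among 12200 were KSR1 (0.0615), CA11 (0.0723) and FCGR2C (0.0783). FCGR2C, with 22 to 101 counts, shares sequence with its neighbors in the Fc receptor family and is uncertain. The 3 nearest to FTL were EFNA1 (0.0485), WIPI1 (0.0487) and PDLIM4 (0.0619). WIPI1, an autophagy gene, was at 42.9 and 49.3 CPM in DMSO and at 114 and 106 CPM in RB-BC. These distances rest on 4 libraries and say nothing of shared function or control.

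Beyond the 9 genes, 115 others in 9 lists of iron biology were read from the same fit. The lists too were chosen with earlier results of these data known, so their counts are a description. Of the 102 that were tested, 14 rose and 6 fell, a share of 19.6% against 16.1% of all genes. Their median log2 fold change was 0.14, against −0.0016 for all genes. Without RB-BC 1, 1 of them passed (MAFF) and without RB-BC 2, 8 passed, so that most calls below were lost in those fits, as for genes in general.

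Among factors known to act on ferritin gene transcription, 5 of 10 rose and 0 fell, with a median of 0.67. Of all genes, 8.58% passed as higher and 7.53% as lower. This list was chosen with earlier results known and mixes activators with repressors, so nothing is read from its count. DESeq2 called 6 of the 10, 5 higher and 1 lower, and 23.4% of all genes. The lower one was PIAS3, which encodes a SUMO ligase and was at 110 and 112 CPM in DMSO and at 81.7 and 85.7 CPM in RB-BC (DESeq2 adjusted p = 0.0480, edgeR adjusted p = 0.0906). MAFF, a small MAF protein, was at 11.7 and 10.7 CPM in DMSO and at 102 and 77.2 CPM in RB-BC, a log2 difference of 2.998 ± 0.194 (edgeR adjusted p = 0.00377). BACH1, the heme-sensing repressor of ferritin and heme oxygenase genes, was at 54.39 and 42.99 CPM in DMSO and at 131 and 114 CPM in RB-BC (1.33 ± 0.18). MAFK (1.07 ± 0.16), the AP-1 member JUND (1.13 ± 0.19) and NFE2L1 (0.83 ± 0.16) also rose. NFE2L2, which encodes NRF2, an activator of both ferritin genes, was at 97.3 and 97.9 CPM in DMSO and at 62.8 and 102 CPM in RB-BC. The groups overlapped for NFE2L2, and RB-BC 1 alone was low (−0.24 ± 0.24, edgeR adjusted p = 0.501).

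Among 10 transcripts known to carry an iron-responsive element, 9 were tested and 3 rose, namely FTH1, FTL and EPAS1, and 0 fell (median 0.45). Of all genes, 8.58% passed as higher and 7.53% as lower. FTH1 and FTL are also among the genes the list was built around, so nothing is read from this count. EPAS1, which encodes HIF-2α and has its element in the 5′ UTR, was at 53.5 and 55.9 CPM in DMSO and at 127 and 130 CPM in RB-BC (1.24 ± 0.14). The libraries of each group were nearly level for EPAS1. Its call was lost when RB-BC 1 was left out (1.26, edgeR adjusted p = 0.0605).

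Of 13 tested genes of iron uptake, 1 rose and 1 fell (median 0.18), a share of 15.4% against 16.1% of all tested genes. LCN2, which encodes a protein that binds iron-carrying siderophores, was counted 0 and 18 times in DMSO and 1253 and 319 times in RB-BC. Its call (edgeR adjusted p = 0.0241) was lost under DESeq2 (adjusted p = 0.0678) and limma-voom (adjusted p = 0.0677). It was also lost when RB-BC 1 was left out (edgeR adjusted p = 0.0739). SLC39A8, a zinc and iron importer, was at 31.0 and 49.2 CPM in DMSO and at 18.4 and 21.7 CPM in RB-BC. It fell by 0.998 ± 0.250 on the log2 scale (edgeR adjusted p = 0.0463), and its call was lost with library totals alone, with limma-voom and without either RB-BC library. Of 7 tested storage partners 0 passed edgeR's test, with 2 at an unadjusted p under 0.05, 2 by DESeq2 and 0 by limma-voom. Of all 13744 tested genes, 4828 had an unadjusted p under 0.05, and DESeq2 called 23.4% and limma-voom 16.6%. The iron chaperones PCBP1 (0.17 ± 0.15) and PCBP2 (0.15 ± 0.14), which deliver iron to ferritin, were near 300 CPM in RB-BC at 307 ± 3.14 and 300.1 ± 2.25 CPM, against 272 ± 26.5 and 271 ± 21.8 CPM in DMSO.

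In the export and hepcidin list 4 of 9 genes were tested, and 0 passed edgeR's test (0 also at an unadjusted p under 0.05, by DESeq2 and by limma-voom). PRNP, the prion protein gene, was at 647 and 275 CPM in DMSO and at 261 and 695 CPM in RB-BC, so each group held a high and a low library. APP, the amyloid precursor gene, was at 0.15 ± 0.16. Of 9 genes that turn over or load the regulatory proteins 0 passed edgeR's test, with 1 at an unadjusted p under 0.05, 1 by DESeq2 and 0 by limma-voom. Beside both lists, 16.1% of all 13744 tested genes passed edgeR's test and 4828 had an unadjusted p under 0.05. DESeq2 called 23.4% of them and limma-voom 16.6%. FBXL5, the iron-sensing ubiquitin ligase subunit that targets IREB2, was at 58.43 and 38.04 CPM in DMSO and at 69.15 and 68.01 CPM in RB-BC. Its difference of 0.51 ± 0.22 did not pass (edgeR adjusted p = 0.161), while leaving out DMSO 1 gave 0.85, which did (edgeR adjusted p = 0.0154). SKP1 and MMS19 were at −0.11 ± 0.15 and 0.17 ± 0.14.

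In heme metabolism 2 of 18 tested genes rose and 2 fell (median 0.11), a share of 22.2% against 16.1% of all tested genes. BLVRB, a biliverdin reductase, was at 15.3 and 17.8 CPM in DMSO and at 74.4 and 42.6 CPM in RB-BC (1.82 ± 0.29), and UROD of heme synthesis rose by 0.72 ± 0.17. The heme exporter FLVCR1 (−0.91 ± 0.15) and ABCG2, which transports porphyrins (−1.67 ± 0.30), fell. With library totals alone the calls of UROD (edgeR adjusted p = 0.0564) and FLVCR1 (edgeR adjusted p = 0.0607) were lost, and that of UROD was also lost when DMSO 1 (0.65) or either RB-BC library (0.55 and 0.88) was left out. HMOX1, the heme oxygenase that frees iron from heme, was at 9.67 and 15.9 CPM in DMSO and at 24.6 and 25.2 CPM in RB-BC. It did not pass (0.96 ± 0.25, edgeR adjusted p = 0.0535), but DESeq2 (adjusted p = 0.00868) and limma-voom (adjusted p = 0.0442) called it, as did the fits that left out DMSO 1 (0.64) or DMSO 2 (1.36).

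Of 28 genes of mitochondrial iron and iron-sulfur clusters 3 rose and 2 fell (median −0.05). Their share was 17.9%, against 16.1% of all tested genes. SLC25A37, a mitoferrin that imports iron, rose (0.89 ± 0.15). It was at 136.5 and 121 CPM in DMSO and at 247 and 231 CPM in RB-BC. The ferredoxin reductase FDXR (0.79 ± 0.18) and ISCA2 (0.65 ± 0.15) also rose. IBA57 (−1.05 ± 0.19), a late cluster assembly factor, and ABCB10 (−0.78 ± 0.17), which stabilizes mitoferrin, fell. With library totals alone 1 of the 28, SLC25A37, passed. Of 10 tested genes of iron-dependent lipid peroxidation, 2 rose and 1 fell (median 0.18), a share of 30% against 16.1% of all tested genes. GPX4, which detoxifies lipid peroxides, was at 116 and 153.5 CPM in DMSO and at 261 and 209 CPM in RB-BC, a log2 difference of 0.80 ± 0.20 (edgeR adjusted p = 0.0465), and its call was lost without DMSO 1 and without either RB-BC library. The lipid droplet gene PLIN2 rose (1.28 ± 0.17), and LPCAT3, which loads polyunsaturated fatty acids into phospholipids, fell (−1.16 ± 0.19). SLC7A11, the cystine importer, was at 0.26 ± 0.16 (edgeR adjusted p = 0.297).

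**Figure D4:**
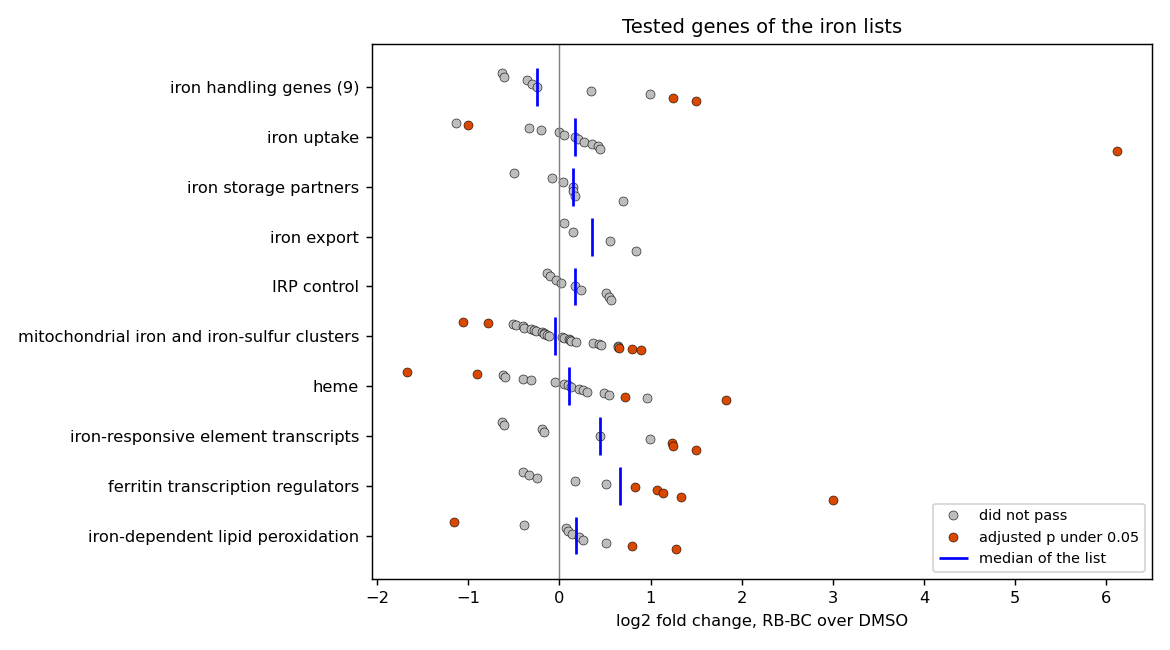
Log2 fold change of each tested gene (point) in the 9 iron handling genes and in each of the other lists, with those past an adjusted p of 0.05 in orange and the list's median as a blue line. Points past the threshold lie on both sides of 0 in the heme and mitochondrial lists, and above 0 in the list of ferritin transcription regulators (5 rose and 0 fell). The lists were chosen with earlier results of these data known.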

How the data were processed

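The authors deposited whole-number read counts per Ensembl gene, 1 column per library, per the file headers. Aligner, counting program, annotation and strand setting: not given in the sources used here. Builds named, per the submitters' processing notes, are those of mouse (GRCm38, mm10), yet all 20263 identifiers are human, so coordinates are given only for sequences from RefSeq and GENCODE. Per the labels' protocols mRNA libraries were made from 1.4 µg of total RNA. Of the genes, 20148 took their symbol from a table of names, 76 from GENCODE release 29, and 39 had none.

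The comparison used edgeR 4.0.16 in R 4.3.3: filterByExpr (minimum count 10, minimum total 15; 13744 genes kept), TMM scaling, and a two-sided quasi-likelihood test with Benjamini-Hochberg adjustment over all genes and a threshold of 0.05. Levels are TMM-scaled CPM computed from the deposited counts, and lengths are those of GENCODE principal transcripts. Same-numbered libraries did not deviate together (correlation −0.03 over 13744 genes), and no label says that they share a batch. The 9 genes and the lists were chosen with earlier results of these data known. Named in the text are the 9 genes, from each list up to 4 genes past the threshold (or the 2 most abundant), 8 fixed genes, and the 3 nearest profiles of each ferritin gene with a mean of at least 50 counts. NFE2L1, PIAS3, ISCA2, CAV1, CD68 and BEST1 were named after their values were seen. Alternatives were RLE factors, library totals, other filters, DESeq2 1.42.0, limma-voom (limma 3.58.1), a replicate block, leaving out each library, removing mitochondrially encoded genes, and TMM factors without FTH1 and FTL.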

Additional observations from a re-analysis of the deposited data

How the results depend on the processing

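Each of the 9 genes kept its direction under all 13 alternatives, with FTH1 between 1.28 and 1.77 and FTL between 1.18 and 1.32 on the log2 scale. Leaving out each library moved the number that passed from 2 of the 9 to between 0 and 4, and the number over all genes from 2214 to between 205 and 3648. In the same fits the wider iron genes that passed went from 20 to between 1 and 27. By list the range was 0 to 3 for iron uptake, 0 to 2 for storage partners, 0 to 1 for control of the regulatory proteins, 0 to 6 for mitochondrial iron, 0 to 7 for heme, 0 to 4 for transcripts with an iron-responsive element, 1 to 5 for transcription regulators and 0 to 4 for lipid peroxidation. With library totals alone 1205 genes passed in all, 790 higher and 415 lower against 1179 and 1035 with TMM, with 1 in iron uptake and 1 in mitochondrial iron. With DESeq2, 1 passed in iron uptake, 2 among storage partners and 1 in control of the regulatory proteins, and with limma-voom 0 passed in iron uptake. The replicate number, which only names the libraries, gave 2114 calls as a replicate block, with 3 in mitochondrial iron, and SLC11A2 passed (1.09, edgeR adjusted p = 0.0141). The FTH1 to FTL ratio of counts (0.208 in DMSO and 0.249 in RB-BC) became 0.149 and 0.178 when taken per kilobase. That step scales every library by the same fixed lengths. With 2 libraries a group, leaving a library out only returns the ratio of the other. These ratios were 0.182 and 0.234 in DMSO and 0.242 and 0.256 in RB-BC, so neither step is a check of the difference. With a library left out PRNP ran from −0.82 (without RB-BC 2) to 0.80 (without DMSO 1), being −0.44 without DMSO 2, and NFE2L2 from −0.64 (without RB-BC 2) to 0.067 (without RB-BC 1). These 2 genes are among 40 named beyond the 9. Over the 40 genes and the 13 alternatives, 448 values kept their direction and side of the threshold. Another 57 lost their call, 12 gained one and 3 changed direction. Apart from leaving out libraries, which removes samples, the cause of these shifts was not tested. The lowest count of any of the 9 genes in a library was 139, for SLC40A1, and the part of depth in the spread was not tested.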

Other observations

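The DMSO libraries differed from each other for some of the iron genes by more than for most genes. SLC11A2 was lower in DMSO 2 than in DMSO 1 by a log2 difference of −1.12, a larger absolute difference than for 94.8% of tested genes, and TFRC by −0.96, larger than for 92.7%. SLC40A1 was at −0.68 in the same comparison, FTH1 at 0.49 and FTL at 0.13, where the median absolute difference over all genes was 0.27. Between the RB-BC libraries TFRC was at −0.64, again a larger absolute difference than for 92.2% of genes, while FTH1 and FTL were at −0.18 and −0.10 and the median absolute difference was 0.15. Of the 9 genes, TFRC was thus the one for which both pairs of libraries lay farther apart than for 9 in 10 genes.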
